A study of Danio rerio with 6 samples.

Results

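Immediate early transcription factors and phosphatases were taken from 51 listed zebrafish symbols, chosen as genes that tissue dissociation can induce, with the heat shock genes left out. Of these, 49 symbols matched 50 of the 31962 Ensembl genes in the count files, whereas zfp36 and rhob matched none. The pairs behind junba and junbb, zfp36l1a and zfp36l1b, gadd45ba and gadd45bb, gadd45aa and gadd45ab, and per1a and per1b carried 1 shared name each in the name table, so that their members are given by Ensembl ID, and nr4a2a matched a pair named NR4A2 in the same way. Names in capitals are those of the table. The members and the other lists were chosen with earlier results of these data known, so comparisons with all tested genes were not made blind.

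Immediate early genes are transcribed within minutes of a stimulus without new protein synthesis. Kinases of the MAPK pathway act through the factors SRF, ELK and CREB to switch them on, and their products include the Fos, Jun and ATF proteins that pair through leucine zippers to form the AP-1 complex, the zinc finger factors of the Egr and Klf families, and proteins that end the response, such as the Dusp phosphatases that inactivate MAP kinases and the Zfp36 proteins that destabilise short-lived mRNAs. In macrophages these genes answer microbial and inflammatory signals, and they are also known to be induced while tissue is dissociated into single cells.

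Counts came from 6 RNA libraries of red fluorescent cells sorted from larvae of the line mpeg1:mCherryF, in which the promoter of the macrophage gene mpeg1 drives the reporter. In 3 libraries the larvae were wild type (cxcr3.2+/+) and in 3 they carried the homozygous mutation of the chemokine receptor gene cxcr3.2 (cxcr3.2-/-), with no infection or drug named. Each library was a separate pool of 150 to 200 larvae, and the age is given as 6 days after fertilisation in one label and as 5 days in another. The comparison asks how transcripts of the sorted cells differ between larvae with and without this receptor gene. Levels are TMM-scaled CPM, that is read counts relative to the effective size of the library, given for wild type replicates 1, 2 and 3 and then mutant replicates 1, 2 and 3, fold changes are mutant over wild type, and p-values are from edgeR's quasi-likelihood test adjusted by Benjamini-Hochberg over all 16499 genes tested.

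Total counts ran from 6239470 to 9607009 per library. The macrophage marker list summed to between 3401 and 4026 CPM in all 6 libraries, but its members moved both ways. MPEG1 ENSDARG00000043093 (mean 118 against 49.3 CPM), csf1rb (123 against 74.0 CPM) and IRF8 (39.5 against 22.5 CPM) lay below the wild type libraries without overlap and without being called. SPI1 (361 against 560.0 CPM, called higher), CORO1A (609 against 834 CPM), c1qc (29.2 against 56.1 CPM) and c1qa (3.64 against 8.85 CPM) lay above. The other MPEG1 entries overlapped between the genotypes, ENSDARG00000055290 at a mean of 336 against 300 CPM and ENSDARG00000078569 at 3.16 against 2.28 CPM. Of the 19 macrophage markers tested 11 had a negative log2 fold change (median −0.14). The 18 epidermal markers summed to between 8550 and 9903 CPM, of which pfn1, an actin regulator that macrophages also express, gave 3384 to 3831 CPM. Without pfn1 the other 17 summed to 5582, 5660 and 6331 CPM in wild type against 4719, 5037 and 4892 CPM in mutant libraries, lower in the mutants without overlap. Single epidermal markers moved both ways. Without overlap, krt4 (mean 1535 against 1234 CPM) and cldni (688 against 469 CPM) lay below wild type. Above it lay s100a10b (97.5 against 182 CPM) and pfn1 (3499 against 3786 CPM). The epidermal list had 14 of its 18 genes at a negative log2 fold change (median −0.23, none called) and no gene at 0, and 1 macrophage marker, CCR9 ENSDARG00000099738, was at 0 in 2 libraries. The part of either list in the results was not tested. The sum of the muscle markers stood at 1501 CPM in mutant replicate 2, against 94.2 to 160 CPM elsewhere. The heat shock genes, 22 of which were tested, held 9.10%, 17.8% and 10.9% of all counts in the wild type libraries and 2.90%, 2.91% and 3.19% in the mutant libraries, with 14 of the 22 called lower. The part of this difference in the results on the immediate early genes was not tested.

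Relative to all tested genes, most immediate early genes lay somewhat lower in the mutant pools of sorted cells, and both genes that passed the test encode AP-1 factors. Of the 50 genes, 46 were tested, each with at least 10 reads in every library; fosaa, fosl1b, klf6b and NR4A2 ENSDARG00000017007 reached no more than 3.17 CPM in any library and were not tested. ATF3 and JUND fell and none rose (in a pool, fewer expressing cells and less RNA per cell cannot be told apart), that is 2 of 46, where 0.885% of all tested genes were called lower and 0.309% higher. With TMM the log2 fold change was negative for 36 of the 46, against 52.1% of all tested genes, and its median was −0.33 against −0.03. With total counts as the scaling it was negative for 25 of the 46, and its median was −0.06 against 0.24. With TMM all 3 mutant libraries lay below all 3 wild type libraries for 20 of the 46, and all lay above for 4. This was the case for 10.4% and 10.2% of all tested genes. EGR2 was the 1 gene of the 46 whose fold change reached 2-fold. The number of calls depended on the method: DESeq2 called 8 lower and 3 higher, where it called 2.69% and 2.31% of its tested genes, and edgeR with a filter of 50 counts in 3 libraries called 8 lower and 2 higher, where the shares were 3.07% and 1.48%. With upper quartile scaling 7 were called lower and none higher, where 1.01% and 0.327% of all tested genes were called. With total counts as the scaling none was called lower and 2 were called higher (mcl1b and CEBPD). Total counts outside the heat shock genes gave 1 lower (ATF3) and 1 higher (mcl1b). The replicate number as a block gave 1 lower (mcl1a) and none higher. In that order these fits called 0.709%, 0.794% and 0.509% of all tested genes lower. The 8 that DESeq2 called lower were ATF3, JUND, EGR2, mcl1a, FOSL1, maff, JUN and GADD45A ENSDARG00000043581, and the 3 called higher were CEBPD, mcl1b and KLF9.

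**Figure D1:**
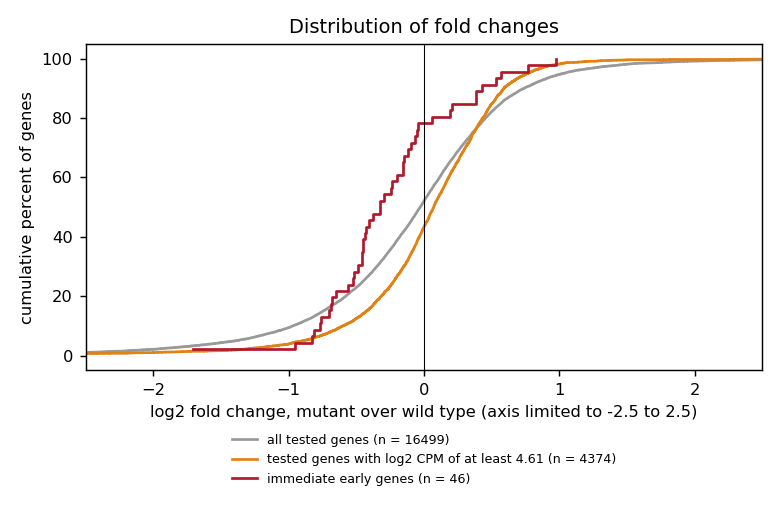
Cumulative percent of genes (vertical axis) at or below each log2 fold change of mutant over wild type (horizontal axis, limited to −2.5 to 2.5), for the 46 tested immediate early genes, all 16499 tested genes and the 4374 tested genes whose mean log2 CPM was 4.61 or more, the 10th percentile of the immediate early genes. The curve of the immediate early genes lies to the left of both others around 0, with a median of −0.33 against −0.03 and 0.07.

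Immediate early genes have many counts, so they were also set beside the 4374 tested genes at or above that level. Among these the median log2 fold change was 0.07 and 43.4% had a negative sign. Without overlap, 13.4% of them lay below the wild type libraries and 19.6% above. Of the 4374, 116 were called lower and 45 higher, a larger share than of all tested genes, beside 2 lower and 0 higher of the 46 immediate early genes.

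The size of the shift depended on the scaling. With total counts as the only scaling, a choice added after the data were seen, the median of all tested genes moved from −0.03 to 0.24 and that of the immediate early genes from −0.33 to −0.06. Scaling moves all genes nearly alike, so the distance between the 2 medians (−0.30 with TMM) and the 36 of the 46 genes below the median of all genes stay about the same by construction and say nothing about stability. With total counts 8 genes lay below the wild type without overlap and 11 above, against 5.45% and 19.6% of all tested genes, and with total counts outside the heat shock genes 13 lay below and 6 above, against 7.8% and 14.1%. ATF3, JUND, JUN, FOSL1, maff, EGR2, mcl1a and GADD45A ENSDARG00000043581 were the 8 that lay below under each of the 3 scalings, and mcl1b, CEBPD, KLF9 and KLF6 the 4 that lay above. The 50 genes together held 2.30% ± 0.0848 of all counts in wild type and 2.27% ± 0.180 in mutant libraries (SD, n = 3 each), and 2.64% ± 0.209 and 2.34% ± 0.182 of the counts outside the heat shock genes.

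**Figure D2:**
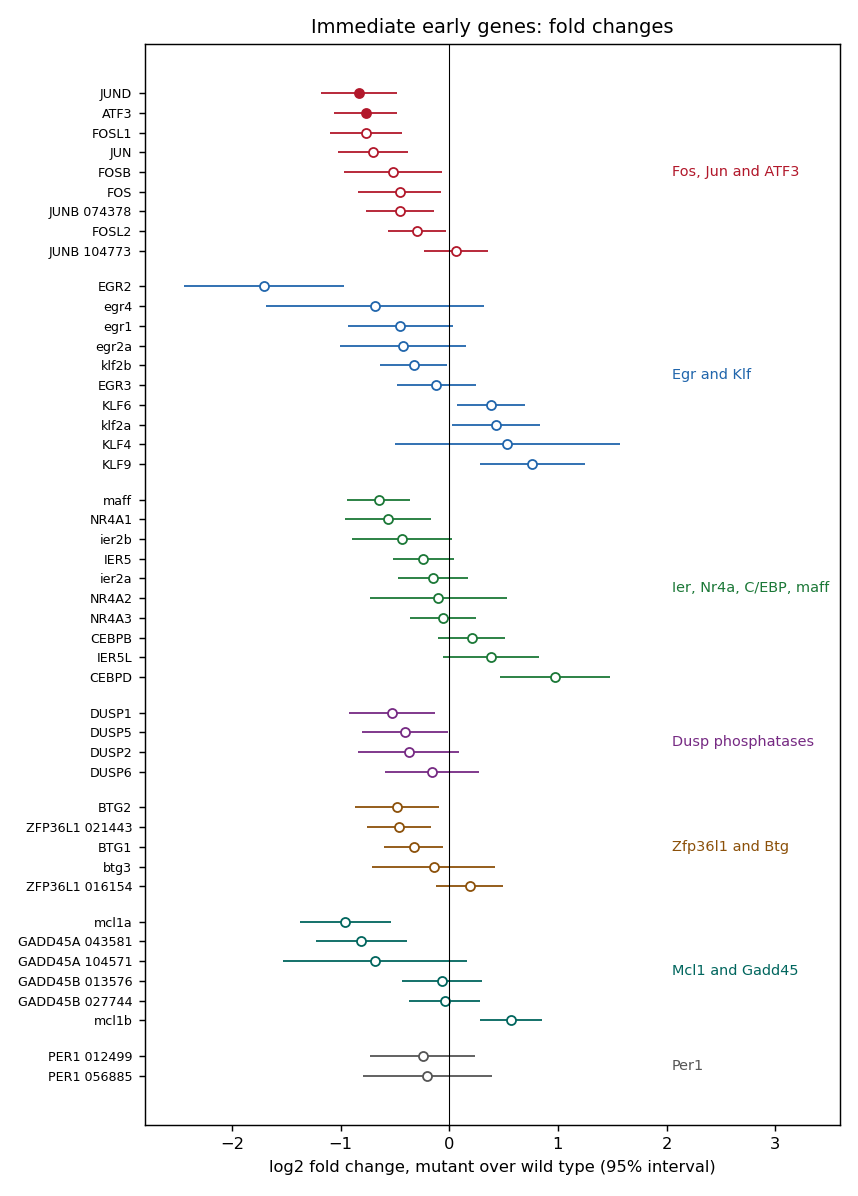
Log2 fold change of mutant over wild type (horizontal axis, points, with 95% intervals as lines) for the 46 tested immediate early genes, ordered by role group and within it by fold change; filled points have an adjusted p under 0.05, and the last 6 digits of the Ensembl ID follow a shared name. The filled points are ATF3 and JUND, 8 of the 9 Fos, Jun and ATF3 genes lie left of 0, and CEBPD at 0.97 lies farthest to the right.

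The leucine zipper factors of the Fos, Jun and ATF families held both genes that passed the test. EGR2 and mcl1a, which are outside these families, just missed the threshold (adjusted p = 0.0514 for both). Of the 9 tested genes of these families, ATF3 and JUND fell and 8 had a negative sign. These same 8 lay below the wild type libraries without overlap. Of all tested genes 0.885% were called lower, 52.1% had a negative sign and 10.4% lay below without overlap (13.4% of the 4374 with many counts). With total counts as the scaling 4 of the 9 lay below without overlap, namely ATF3, JUND, JUN and FOSL1, where 5.45% of all tested genes did. Summed over the group, the levels were 6728, 8804 and 7886 CPM in wild type against 6278, 5845 and 5633 CPM in mutant libraries.

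ATF3 (ENSDARG00000007823), a stress-induced factor that represses inflammatory genes in mouse macrophages, measured 414, 494 and 508 CPM in wild type against 282, 272 and 276 CPM in mutant libraries. The mutant libraries lay within a narrow band below the lowest wild type library. Its level was 1.7-fold lower (472 ± 50.6 against 277 ± 5.07 CPM, log2 fold change −0.77 with SE 0.13, adjusted p = 0.0286). The call was kept without wild type replicate 1 (adjusted p = 0.0421) and was lost without any other single library (adjusted p up to 0.132). In the fits without one of those other libraries the log2 fold change stayed between −0.78 and −0.71. Over all 15 alternatives the log2 fold change ran from −0.85 to −0.50, and 8 of them called the gene lower. The call was also lost with the replicate number as a block (adjusted p = 0.0796) and with total counts as the scaling.

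JUND (ENSDARG00000067850), the Jun protein that is present in resting cells of most tissues, measured 332, 447 and 325 CPM in wild type against 206, 199 and 217 CPM in mutant libraries. Wild type replicate 2 stood above the other wild type libraries, and no mutant library reached the wild type range. The gene was 1.78-fold lower (log2 fold change −0.83 with SE 0.16, adjusted p = 0.0463), a call that was lost when any one library was left out (adjusted p = 0.0849 to 0.167). The call was also lost with the replicate number as a block (adjusted p = 0.108) and with both total count scalings. Of the 15 alternatives, 6 called the gene lower.

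JUN (ENSDARG00000043531), the founding AP-1 subunit, was at 1543, 2081 and 2078 CPM in wild type against 1278, 1146 and 1080.4 CPM in mutant libraries. FOSL1 (ENSDARG00000015355), a Fos protein without a strong activation domain, was at 244, 264 and 212 CPM and at 152, 145 and 127 CPM. Neither gene's groups overlapped, and both just missed the threshold: JUN had a log2 fold change of −0.70 with an SE of 0.14 (adjusted p = 0.0562) and FOSL1 of −0.76 with an SE of 0.15 (adjusted p = 0.0509). JUN was called without wild type replicate 1 (adjusted p = 0.0289).

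FOS (ENSDARG00000031683), the classic immediate early gene, was at 406, 633 and 485 CPM in wild type against 373, 385 and 354 CPM in mutant libraries. FOSB (ENSDARG00000055751) was at 178, 244 and 148 CPM and at 121, 146 and 132 CPM, and FOSL2 (ENSDARG00000040623) at 833, 962 and 790 CPM and at 690.4, 687 and 730 CPM. In all 3 genes wild type replicate 2 was the highest library and the genotypes were separated by a narrow gap, and their log2 fold changes of −0.45, −0.52 and −0.29 had adjusted p-values of 0.268, 0.289 and 0.304.

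The small Maf protein maff (ENSDARG00000028957), which has a leucine zipper but no activation domain, followed the same order, with 346, 402 and 423 CPM in wild type against 251, 241 and 253 CPM in mutant libraries. Its log2 fold change was −0.65 (SE 0.13, adjusted p = 0.0548).

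**Figure D3:**
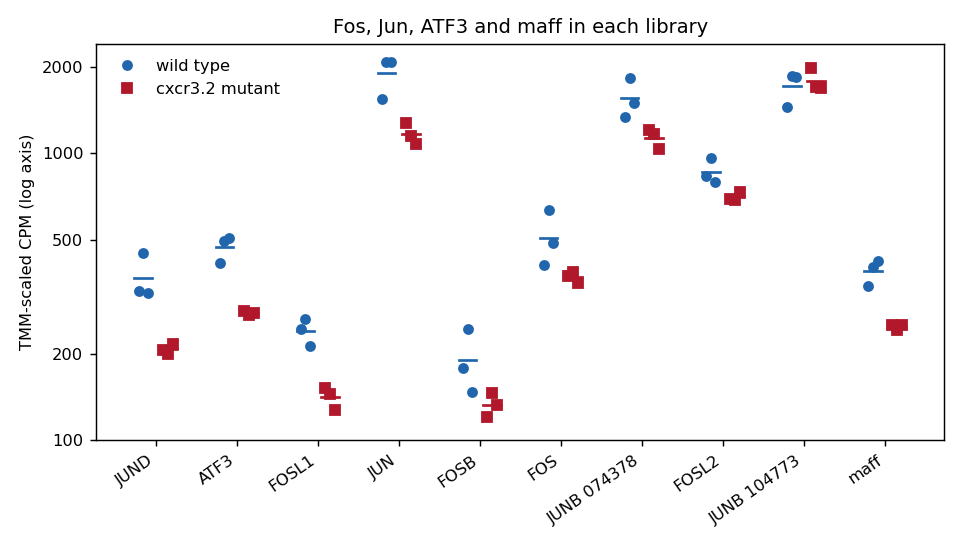
TMM-scaled CPM (vertical log axis) of the 9 tested Fos, Jun and ATF3 genes and of maff in each library, with circles for the 3 wild type and squares for the 3 mutant libraries and bars for the means. In every gene but JUNB ENSDARG00000104773 the 3 squares lie below the 3 circles, for example at 272 to 282 CPM against 414 to 508 CPM for ATF3.

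Several paralog pairs were also read as ratios, none of which passed a test. Zebrafish keep pairs of many genes from a genome duplication, and 9 pairs of the list had both copies tested. The ratio of the reads of both copies within a library does not depend on the scaling. In each pair the copy with the lower log2 fold change was the numerator. The direction of the shifts was set by this choice and is not a result. In 6 pairs the ratio did not overlap between the genotypes and in 3 it did, and in an exact two-sided permutation test the p of the 6 was 0.1, the smallest that 3 libraries against 3 allow (0.15 after Benjamini-Hochberg adjustment over the 9 pairs). Ratios of paralog pairs outside the list were not measured, so no background share stands beside the 6 of 9. How reads that match both copies were counted is not given in the sources used here.

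The pair of Mcl1 genes, which encode anti-apoptotic relatives of Bcl2 with a short half-life, showed the widest divergence. The copy mcl1a (ENSDARG00000009779) was at 1748, 2477 and 1658 CPM in wild type against 999.8, 1197 and 836 CPM in mutant libraries (log2 fold change −0.96 with SE 0.18, adjusted p = 0.0514). The other copy, mcl1b (ENSDARG00000008363), was at 563, 714 and 644 CPM and at 992, 980.4 and 880.2 CPM (log2 fold change 0.57 with SE 0.13, adjusted p = 0.0763). The copies thus went opposite ways, each without overlap between the genotypes. Reads of mcl1a outnumbered those of mcl1b by 3.10, 3.47 and 2.57 to 1 in wild type libraries and stood at 1.01, 1.22 and 0.95 to 1 in mutant libraries, a difference of −1.52 in the mean log2 ratio. Under total count scaling, which moved the median log2 fold change of all tested genes from −0.03 to 0.24, mcl1b was called higher (log2 fold change 0.85, adjusted p = 0.0111).

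In the pair named JUNB, which encodes a Jun protein that counteracts JUN at many targets in mammals, ENSDARG00000074378 was at 1333, 1824 and 1498 CPM in wild type against 1201, 1165 and 1032 CPM in mutant libraries. ENSDARG00000104773 was at 1443, 1852 and 1841 CPM and at 1973, 1698 and 1682 CPM. The first copy lay lower in every mutant library (log2 fold change −0.45, adjusted p = 0.174), whereas the second overlapped between the genotypes (log2 fold change 0.06, 95% interval −0.24 to 0.36), and the mean log2 ratio of the first to the second was −0.15 in wild type and −0.65 in mutant libraries.

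The Egr factors are zinc finger proteins switched on through SRF, and Egr2 proteins are known for roles in hindbrain segments, myelination and alternatively activated mouse macrophages. EGR2 (ENSDARG00000042826), the copy matched to egr2b, was at 29.0, 32.6 and 26.5 CPM in wild type against 7.22, 13.4 and 6.52 CPM in mutant libraries. No mutant library came near the wild type range, and the gene had the largest fold change of the list (3.26-fold lower, log2 fold change −1.70 with SE 0.32, adjusted p = 0.0514). Its paralog egr2a (ENSDARG00000044098) was at 26.9, 25.7 and 24.3 CPM and at 19.8, 23.0 and 14.4 CPM (log2 fold change −0.43, adjusted p = 0.519). The log2 ratio of EGR2 to egr2a went from a mean of 0.19 in wild type to −1.13 in mutant libraries.

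Among the other Egr genes, egr1 (ENSDARG00000037421), the best known of the family, was at 311, 476 and 355 CPM in wild type against 345, 276 and 215 CPM in mutant libraries. The groups overlapped (log2 fold change −0.45, 95% interval −0.93 to 0.03, adjusted p = 0.395), as they did for EGR3 (log2 fold change −0.12) and egr4 (log2 fold change −0.68 with SE 0.44).

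The Krüppel-like factors went the other way in part. KLF9 (ENSDARG00000068194), a factor induced by glucocorticoid and thyroid hormone, was at 36.9, 24.2 and 33.8 CPM in wild type against 54.2, 53.8 and 53.3 CPM in mutant libraries (log2 fold change 0.76 with SE 0.21, adjusted p = 0.147). KLF6 (ENSDARG00000029072) was at 226, 199 and 216 CPM and at 256, 316 and 267 CPM (log2 fold change 0.39, adjusted p = 0.255). Both lay above the wild type range in every mutant library without passing the test. In the Klf2 pair, whose mouse counterpart restrains inflammatory activation of macrophages, klf2b was at 266, 231 and 268 CPM in wild type against 213, 185 and 213 CPM in mutant libraries. The other copy, klf2a, was at 91.2, 108.1 and 77.8 CPM and at 135, 131 and 107.5 CPM. Their log2 fold changes of −0.33 and 0.43 had adjusted p-values of 0.329 and 0.33, and the read ratio of klf2b to klf2a of 2.92, 2.14 and 3.44 in wild type was 1.58, 1.42 and 1.98 in mutant libraries.

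The C/EBP factors, leucine zipper proteins of myeloid differentiation and the acute phase response, both had a positive log2 fold change without passing the test. CEBPD (ENSDARG00000087303) was at 171, 123 and 208 CPM in wild type against 411, 304 and 269 CPM in mutant libraries. All mutant libraries lay above the wild type range, with the largest upward fold change of the list (1.96-fold, log2 fold change 0.97 with SE 0.22, adjusted p = 0.0895). CEBPB (ENSDARG00000042725) was at 2044, 1885 and 1986 CPM and at 2267, 2684 and 1879 CPM, with a log2 fold change of 0.21 (95% interval −0.10 to 0.52). With total count scaling CEBPD was called (log2 fold change 1.23, adjusted p = 0.0476), but the median of all tested genes was then 0.24 in place of −0.03.

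Of the Nr4a orphan nuclear receptors, NR4A1 (ENSDARG00000000796) was at 257, 397 and 319 CPM in wild type against 223, 236 and 201 CPM in mutant libraries. The gap between the genotypes was narrow (log2 fold change −0.56 with SE 0.17, adjusted p = 0.188). NR4A3 (log2 fold change −0.05, 95% interval −0.36 to 0.25) and NR4A2 ENSDARG00000044532 (log2 fold change −0.10) overlapped. In the Ier family IER5 and ier2b lay below the wild type without overlap (log2 fold changes −0.24 and −0.43, adjusted p = 0.442 and 0.391), and ier2a and IER5L overlapped. With total count scaling IER5 had a log2 fold change of 0.03.

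The Dusp phosphatases end MAP kinase signals, DUSP1 in the nucleus on p38 and JNK, and DUSP5 and DUSP6 on ERK. None of the 4 was called and none was free of overlap. DUSP1 (ENSDARG00000100515) was at 1851, 2341 and 2235 CPM in wild type against 1856, 1442 and 1167 CPM in mutant libraries, so that mutant replicate 1 reached the wild type range (log2 fold change −0.53 with SE 0.17, adjusted p = 0.215). DUSP5 was at 987, 1374 and 1432 CPM and at 1135, 915 and 814 CPM (log2 fold change −0.41, adjusted p = 0.342). DUSP2 and DUSP6 had log2 fold changes of −0.37 and −0.16. Summed over the 4 genes, with overlap between the genotypes, the level was 3823 ± 561 CPM in wild type against 2775 ± 539 CPM in mutant libraries.

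Regulators of mRNA decay and growth arrest were called in no case. BTG1 (ENSDARG00000027249), an antiproliferative protein that recruits the deadenylase complex, was at 3032, 4074 and 3348 CPM in wild type against 2872, 2721 and 2735 CPM in mutant libraries (log2 fold change −0.33 with SE 0.12, adjusted p = 0.266). BTG2 was at 460.1, 711 and 655 CPM and at 453, 453 and 400.2 CPM (log2 fold change −0.48, adjusted p = 0.246). For both the genotypes were just separated, with wild type replicate 1 close to the mutant libraries. Of the ZFP36L1 genes, whose products bind AU-rich elements, ENSDARG00000021443 was at 611, 638 and 662 CPM in wild type against 534, 432 and 424 CPM in mutant libraries (log2 fold change −0.46 with SE 0.13, adjusted p = 0.149). ENSDARG00000016154 had a log2 fold change of 0.19 (SE 0.14), and the mean log2 ratio of the first to the second went from 0.39 to −0.27.

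Gadd45 proteins respond to DNA damage and activate the stress kinase cascade. GADD45A ENSDARG00000043581 was at 170.4, 209.7 and 221 CPM in wild type against 124, 129 and 89.5 CPM in mutant libraries. Its groups were clearly apart (log2 fold change −0.81 with SE 0.19, adjusted p = 0.0854). The other GADD45A gene had nearly the same log2 fold change (−0.68, SE 0.37) with overlapping groups, and the ratio of the 2 copies did not separate the genotypes. Both GADD45B genes stayed close to 0 (log2 fold changes −0.07 and −0.04, with 95% intervals of −0.43 to 0.30 and −0.37 to 0.29).

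The period genes are clock repressors, and per1 transcripts also answer acute stimuli in mammals. PER1 ENSDARG00000012499 was at 111, 66.3 and 88.9 CPM in wild type against 81.2, 77.1 and 66.8 CPM in mutant libraries, and PER1 ENSDARG00000056885 at 34.1, 24.6 and 25.1 CPM and at 18.5, 28.9 and 25.6 CPM. Both overlapped (log2 fold changes −0.24 and −0.20), and that of ENSDARG00000012499 was 0.0044 under total count scaling.

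**Figure D4:**
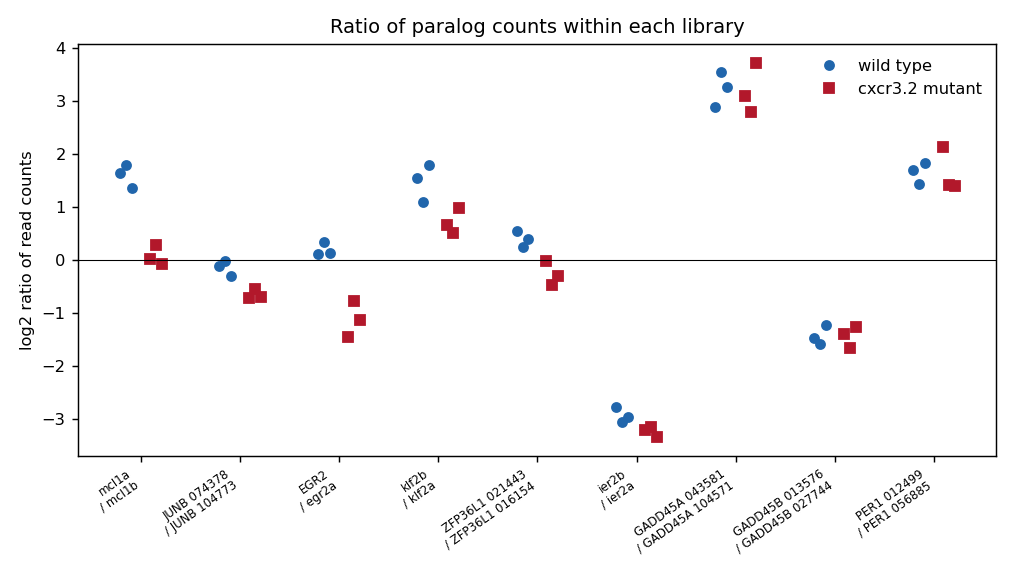
Log2 ratio of the read counts of paralogs (vertical axis) in each library for the 9 pairs with both copies tested, circles for wild type and squares for mutant libraries; digits are the end of the Ensembl ID. Circles and squares are apart in 6 pairs, most widely for mcl1a over mcl1b (means 1.60 and 0.08), and mixed for GADD45A, GADD45B and PER1. The copy with the lower log2 fold change is the numerator of each pair, so the direction of the shifts is set by that choice.

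The libraries of one genotype were not alike. Wild type replicate 2, which had the largest heat shock share, was the highest library for 19 of the 46 genes, where it was the highest for 17.7% of all tested genes. It was also the highest for 110 of the 146 genes called lower among all tested genes. Mutant replicate 3 was the lowest for 23 of the 46, where it was the lowest for 15.8% of all tested genes. Without wild type replicate 1 the 2 genes called were JUN and ATF3, and without mutant replicate 2 the 1 gene called was EGR2. Leaving out any of the other 4 libraries, one at a time, left no immediate early gene called, with medians of −0.26 without wild type replicate 2, −0.33 without wild type replicate 3, −0.35 without mutant replicate 1 and −0.29 without mutant replicate 3.

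**Figure D5:**
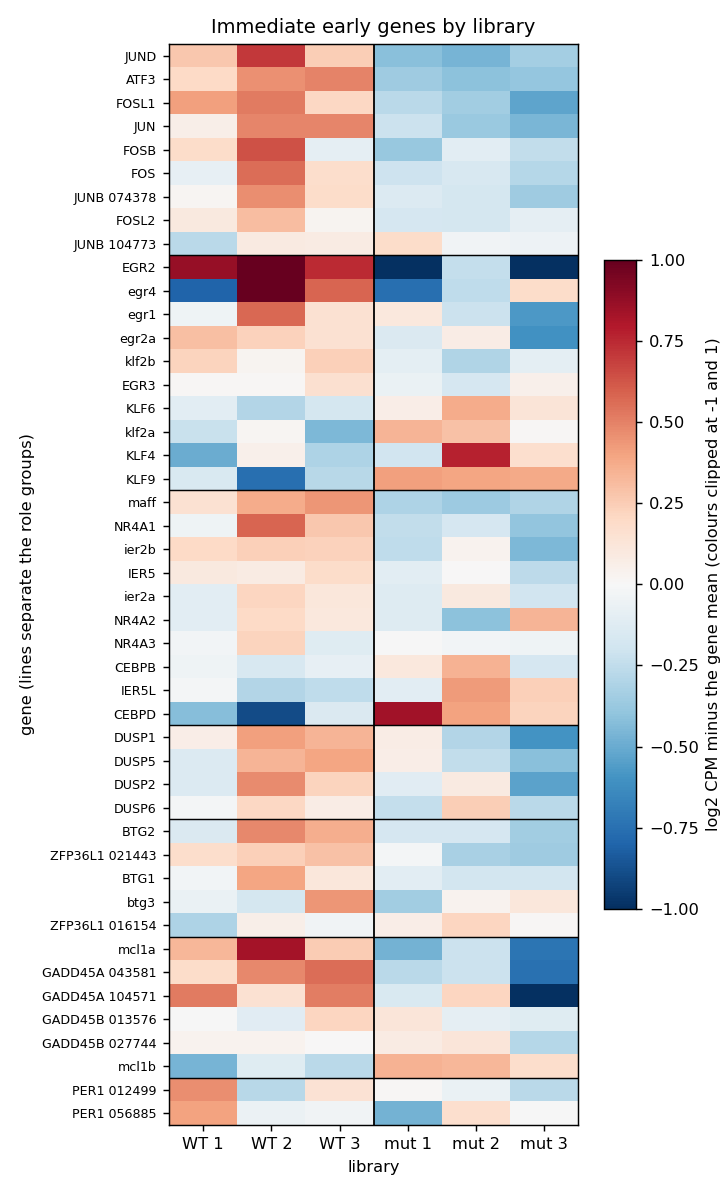
Log2 CPM minus the mean of the gene over the 6 libraries (colour, clipped at −1 and 1) for the 46 tested immediate early genes (rows, in the order of the plot of fold changes) in the wild type (WT) and mutant (mut) libraries (columns). The Fos, Jun and ATF3 rows are above their mean in WT 2 and, except for JUNB ENSDARG00000104773, below it in all mutant libraries, and mutant replicate 3 is the lowest library for 23 rows.

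Other genes of the pathway were read from 6 lists. Of all tested genes 0.885% were called lower and 0.309% higher. Without overlap, 10.4% lay below the wild type libraries and 10.2% above. Of 33 tested genes of the MAPK, SRF and CREB pathway 1 fell and none rose, with a median log2 fold change of −0.07. The gene that fell was MKNK2 (ENSDARG00000015164), a kinase that acts below ERK and p38 on the translation factor eIF4E. It was at 1567, 2768 and 1926 CPM in wild type against 835, 739 and 877 CPM in mutant libraries (log2 fold change −1.35 with SE 0.19, adjusted p = 0.0173). The genotypes did not overlap, and the gene was highest in wild type replicate 2. Its call was kept without wild type replicate 1 or 2 and was lost without wild type replicate 3 or any one mutant library (adjusted p = 0.0641 to 0.0993). None of 10 other dual-specificity phosphatases (median −0.02) or 27 other leucine zipper factors (median −0.12) was called. The lowest p belonged to DUSP4 (log2 fold change 0.80, adjusted p = 0.245) and to MAFA (log2 fold change −0.86, adjusted p = 0.0946). Without overlap, 4 of the 33 genes of the MAPK, SRF and CREB list lay below wild type and 1 above. For the 10 phosphatases these counts were 1 and 2, and for the 27 leucine zipper factors 5 and 2.

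Among 20 tested targets of the integrated stress response, a pathway that also induces ATF3, 2 fell and none rose, with a median of −0.10. The first, ppp1r15a (ENSDARG00000069135), which encodes the phosphatase subunit that ends this response, was at 337, 503 and 391 CPM in wild type against 137, 135 and 148 CPM in mutant libraries (log2 fold change −1.55 with SE 0.16, adjusted p = 0.00459). The second, nupr1a (ENSDARG00000094300), a small stress-induced chromatin protein, was at 43.4, 42.8 and 45.6 CPM and at 18.8, 18.5 and 13.9 CPM (log2 fold change −1.36 with SE 0.22, adjusted p = 0.0257). Both were apart between the genotypes, and ppp1r15a was highest in wild type replicate 2. With each library left out in turn ppp1r15a stayed called (adjusted p = 0.00506 to 0.0407) and nupr1a was never called (adjusted p = 0.0736 to 0.115). The list did not move 1 way: without overlap 3 of the 20 lay below wild type and 4 above. DESeq2 called 3 of the list lower and 2 higher, where it called 2.69% and 2.31% of its tested genes.

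None of 35 clock genes (median −0.18) and none of 15 glucocorticoid targets (median −0.18) was called, and the lowest p belonged to BHLHE41 (log2 fold change 0.69, adjusted p = 0.0691) and PDK2 (log2 fold change −0.80, adjusted p = 0.072). Without overlap, 10 of the 35 clock genes (28.6%) lay below wild type and 3 above. Of the 15 glucocorticoid targets 4 (26.7%) lay below and 1 above, against 10.4% and 10.2% of all tested genes.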

How the data were processed

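Polyadenylated RNA of sorted cells was sequenced from 3 wild type and 3 mutant pools, grouped by the sample titles. The authors deposited 1 table per library with unnormalized counts for 31962 Ensembl genes. Per the labels' protocols, cDNA was amplified with a low-input kit and reads were aligned to GRCz10, and Bowtie and TopHat are named in the submitters' processing notes. Not given in the sources used here are the counting tool, its use of strand and of multimapping reads, and the release of the annotation. Amplification without molecular identifiers adds noise that counts cannot separate from biology. 1 blank line was skipped.

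Symbols came from a table naming 26121 of the IDs, matched exactly, then in upper case, then without a paralog suffix. The members and lists were chosen with earlier results of these data known. Genes named are those called, those whose genotypes do not overlap at a mean log2 CPM of at least 1, the paralog of a called member, and the lowest p and most counts in each of 7 role groups; others are named after their values were seen.

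In R 4.3.3, edgeR 4.0.16 kept 16499 genes (filterByExpr, minimum count 10, minimum total 15), scaled by TMM and fitted genotype alone (two-sided, threshold 0.05, common biological coefficient of variation 0.441). SE are Wald errors with the quasi-likelihood variance, intervals are 95%. No label says that replicate numbers mark shared days, so p-values measure the spread between pools. Replicates of a genotype differed by more than sampling noise (lowest chi-square 18.3 per gene). Alternatives were DESeq2 1.42.0, other scalings and filters, a replicate block and each library left out.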

Additional observations from a re-analysis of the deposited data

How the results depend on the processing

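The median log2 fold change of the immediate early genes was negative in all 15 alternatives, of which both total count scalings were chosen after seeing the data. It was −0.056 with total counts and −0.21 with total counts outside the heat shock genes, and −0.35 to −0.26 with one library left out. DESeq2 called 8 immediate early genes lower and 3 higher, 438 genes higher and 510 lower in all, and 11 genes lower and 3 higher in the 6 pathway lists. The filter of 50 counts in 3 libraries called 8 immediate early genes lower and 2 higher, 142 genes higher and 295 lower in all, and 7 lower and 1 higher in the pathway lists. Upper quartile scaling called 7 of 46 immediate early genes lower, where it called 1.01% of all tested genes lower. The fit without a count filter called 4 of 50 lower, where it called 0.604% of 26817 genes lower. Total counts called 2 immediate early genes higher and 0 lower, 217 genes higher in all and 2 higher in the pathway lists. Total counts outside the heat shock genes called 1 higher and 1 lower, 105 genes higher in all and 1 higher in the pathway lists. Of all tested genes these scalings called 0.709% and 0.794% lower. With one library left out, 0 to 2 immediate early genes were called lower, 3 to 11 genes higher and 43 to 98 lower in all, and 1 to 2 lower in the pathway lists. The direction was followed for 29 immediate early genes, those named for a call, for no overlap or for their rank in a role group. Among them it reversed for IER5 (log2 fold change 0.026) and PER1 ENSDARG00000012499 (0.0044) with total counts. It also reversed for JUNB ENSDARG00000104773 without wild type replicate 1 or mutant replicate 1 (−0.041 to 0.13 over the libraries left out). Of all 46 tested, 36 had a negative sign in the main fit. With total counts 25 did, and with total counts outside the heat shock genes 31. The causes were not tested.

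With the replicate number as a block, 1 immediate early gene was called lower (mcl1a), 13 genes higher and 84 lower in all, and 1 lower in the pathway lists (ppp1r15a, adjusted p = 0.0192; MKNK2 had 0.0523 and nupr1a 0.0796). Whether the numbers pair the samples is not known. Deviations of same-numbered libraries correlated at −0.0262, 0.0024 and −0.0293 across genes, and those of different-numbered libraries at −0.0438 to 0.0656. These correlations cannot decide it, since the deviations were taken from the mean of only 3 libraries. With 3 libraries a genotype, an exact permutation test of a single gene cannot go below 0.1.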
